A study of Drosophila melanogaster with 16 samples.

Results

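The 8 genes described here make up the core of the JNK pathway of Drosophila melanogaster and its feedback: the ligand gene egr, the receptor genes grnd and wgn, the kinase genes hep and bsk, the transcription factor genes Jra and kay, and the phosphatase gene puc. They were taken by gene symbol from the authors' tables and are 8 of 17559 genes listed. RNA had been sequenced from isolated trachea, the branched airway, of larvae of the wild-type strain Canton S. The groups were smoke-exposed females, air control females, smoke-exposed males and air control males, with 4 libraries each. Smoke was mainstream smoke of research cigarettes, given at 4 puffs per min for 60 min, and all larvae shared the same strain and carried no transgene named in the labels. The stage and age of the larvae, the number of larvae behind each library and the time between exposure and dissection are not stated in the labels.

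JNK signalling is a kinase cascade that answers stress, wounding and infection. The TNF-like ligand Eiger (egr) binds the receptors Grindelwald (grnd) and Wengen (wgn), upstream kinases pass the signal to the JNK kinase Hemipterous (hep), and this activates the JNK Basket (bsk). Basket phosphorylates the AP-1 transcription factors Jra, the fly Jun, and Kayak (kay), the fly Fos, and in fly epithelia the pathway drives cell movements in closure and wound healing, regeneration and, when strong, cell death. Puckered (puc) removes the activating phosphate from Basket, and since its gene is itself a target of the pathway, it forms a negative feedback and its reporters serve as a common readout. RNA levels do not measure the phosphorylation by which these kinases are switched on.

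Recovered totals ran from 15036560 to 23434521 reads a library, and replicates 1 and 2, at 19367755 or more, were deeper than most libraries of replicates 3 and 4, at 19431772 or fewer. Column names of replicates 1 and 2 are written in another style than those of replicates 3 and 4, so changes are also given within each pair of numbers. Names of replicate 3 and of replicate 4 also end in separate sets of closely spaced numbers, whose meaning is not stated. The labels do not say whether the libraries of a group are separate pools of larvae, so the spread behind each p-value may be technical. All 8 markers of trachea were detected in every library, with a summed level of 9182 to 11749 CPM in smoke against 6538 to 9976 CPM in air for females, and 10541 to 14289 CPM in smoke against 7663 to 11769 CPM in air for males. Of these 8 markers 3 were called higher and 1 lower by smoke in females, and 2 higher in males. The 8 muscle markers summed to 1063 to 4857 CPM in female smoke against 574 to 10224 CPM in female air, and to 397 to 2454 CPM in male smoke against 2042 to 9989 CPM in male air, and 2 of them were called lower in males. The 6 fat body markers summed to 1108 to 5376 CPM in female smoke against 811 to 5996 CPM in female air, and to 201 to 1637 CPM in male smoke against 906 to 32734 CPM in male air. The 6 salivary gland markers were all called lower in female smoke, at 2.63 to 9.91 CPM against 52.8 to 238 CPM in female air, and stood at 3.61 to 34.5 CPM in male smoke against 10.7 to 6543 CPM in male air. Hemocyte markers, 7 in number, summed to 639 to 875 CPM in female smoke against 448 to 942 CPM in female air, and to 250 to 578 CPM in male smoke against 558 to 930 CPM in male air, with 1 called lower in males. The 7 midgut markers summed to 0.132 to 34.7 CPM in female smoke against 2.09 to 523 CPM in female air. In males they summed to 0.741 to 77.6 CPM in smoke against 9.71 to 37.9 CPM in air. Only 4 of the 7 could be tested in each sex, and 0 were called. Of the midgut markers only thetaTry was at 0 throughout a group, male smoke. The 4 neuronal markers summed to 20.6 to 31.8 CPM over all smoke libraries against 31.4 to 82.4 CPM over all air libraries. The part of these shifts in any change below was not tested, and in such bulk samples fewer cells of a type and less RNA per cell cannot be told apart.

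In smoke-exposed trachea of both sexes, puc, kay and Jra were higher than in air. The feedback gene puc changed most, by 5.20-fold in females and 4.35-fold in males. The transcription factor genes kay and Jra rose by less than 2-fold in either sex, at 1.91-fold and 1.74-fold in females and 1.93-fold and 1.44-fold in males. The kinase gene bsk and the ligand gene egr passed the test in neither sex. Smaller changes of the kinase gene hep in males and of the receptor gene wgn in females also passed, and both were lost in most fits that left out 1 library.

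All 8 genes had enough reads to be tested in both sexes. In females, limma called 3 of 8 higher and 1 lower, at a threshold of 0.05 on the Benjamini-Hochberg adjusted p over all genes tested, where 10.9% of all genes tested were called higher and 7.09% lower. In males 4 of 8 were called higher and 0 lower, where the shares of all genes were 8.89% and 4.64%. Smoke and air libraries did not overlap for 5 of 8 genes in females and 4 of 8 in males, where 24.5% and 22.5% of all genes tested did not overlap. Of all genes tested in both sexes, 5.75% were called higher in both, and puc, kay and Jra are 3 such genes. The median log2 change of the 8 genes was 0.23 in females and 0.19 in males, beside -0.02 and -0.01 over all genes tested. As the 8 genes were chosen with earlier results of these data known, the comparisons with all genes are a description.

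**Figure D1:**
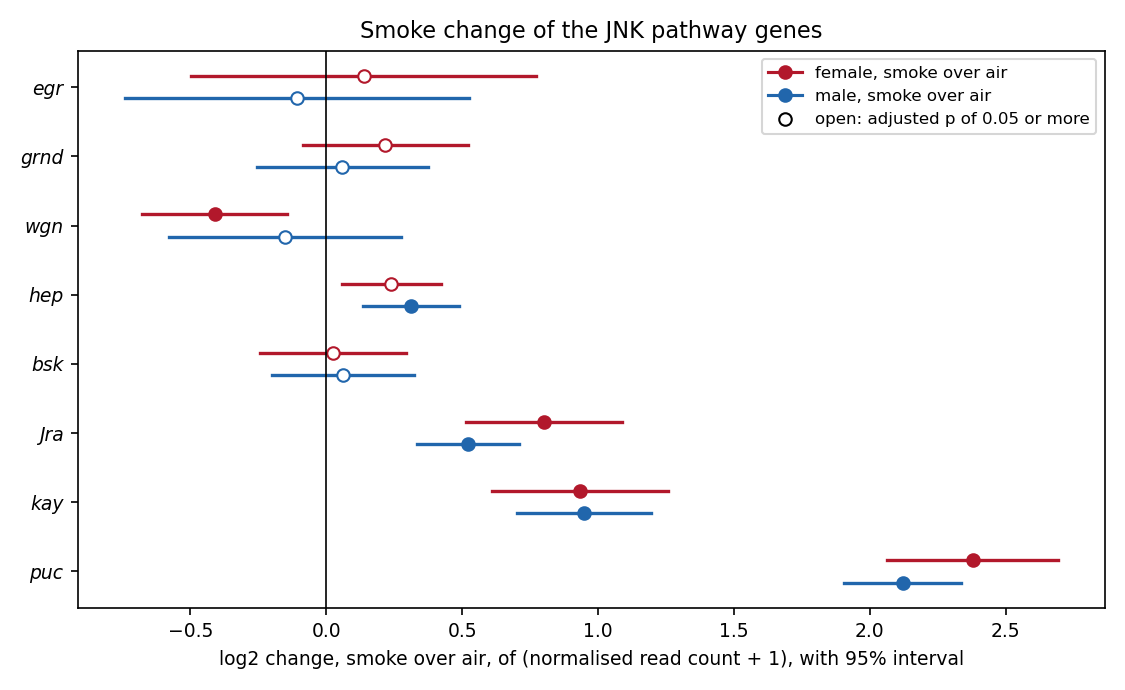
Log2 change with smoke over air of log2(normalised read count + 1) for the 8 JNK pathway genes, females in red above males in blue, with 95% intervals from limma, and open points for an adjusted p of 0.05 or more. The genes run from ligand to feedback, and puc stands apart at 2.38 in females and 2.12 in males, followed by kay and Jra, while the intervals of egr, grnd and bsk include 0 in both sexes.

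The ligand gene egr (FBgn0033483, chromosome arm 2R) was the lowest of the 8 genes. Its normalised read counts, which are reads divided by 1 size factor per library, were 167, 248, 210 and 256 in female smoke replicates 1 to 4, against 194, 119, 306 and 213 in female air. In males they were 239, 191, 233 and 174 in smoke, against 187, 157, 398 and 215 in air. The smoke libraries lay inside the range of the air libraries in both sexes. On the log2(value + 1) scale the change was 0.14 ± 0.28 (SE) in females (limma adjusted p = 0.775) and -0.11 ± 0.28 in males (limma adjusted p = 0.830). The 95% intervals ran from -0.50 to 0.77 in females and from -0.74 to 0.53 in males, so changes of either sign within these bounds were not resolved. The sign differed between the pairs of numbers: within replicates 1 and 2 the change was 0.42 in females and 0.32 in males, and within replicates 3 and 4 it was -0.14 and -0.54. The highest air library was replicate 3 in both sexes, the same library in which fat body markers were highest, at 5996 CPM in females and 32734 CPM in males. That library was also the highest air library for muscle markers, at 10224 CPM in females and 9989 CPM in males. It was highest for midgut markers in females, and for salivary gland, hemocyte and neuronal markers in males. Without replicate 3 of male air the male change was 0.17, and the part of RNA from other tissues was not tested.

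The receptor gene grnd (FBgn0032682, chromosome arm 2L), whose product binds Eiger at the cell surface, stood at 1430, 1272, 1013 and 1219 in female smoke, against 1222, 1142, 931 and 946 in female air. Male smoke libraries were at 1271, 1177, 1095 and 1118, against 1207, 1394, 881 and 1046 in male air. Groups overlapped in both sexes. Their log2 change was 0.22 ± 0.13 in females (limma adjusted p = 0.295) and 0.06 ± 0.14 in males (limma adjusted p = 0.809). With limma's array weights, which give less weight to more variable libraries, the female change was 0.34 and passed (limma adjusted p = 0.0499). In the reference annotation 275 exon bases of grnd, or 13.1% of its exon length, overlap kon on the opposite strand, and whether reads were counted by strand is not stated. The highest library of kon stood at 658 in females and 462 in males.

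The other receptor gene, wgn (FBgn0030941, chromosome arm X), was the only one of the 8 called lower, in females and not in males. In females it stood at 553, 574, 541 and 596 in smoke, against 600, 854, 832 and 751 in air. All 4 smoke libraries lay below all 4 air libraries, the highest smoke library at 596 being just below the lowest air library at 600. On the log2 scale wgn changed by -0.41 ± 0.12 (limma adjusted p = 0.0442), with a 95% interval of -0.68 to -0.14. The call was lost in 7 of the 8 fits that left out 1 library, at adjusted p of 0.0686 to 0.109 (limma), and held only without female air replicate 1. It was lost too with no filter on low values (limma adjusted p = 0.0602). It was kept with edgeR and with DESeq2 on recovered reads, where DESeq2 called 25.3% of the female genes it tested. For female wgn the authors' deposited table gives an adjusted p of 0.0124. In male trachea wgn was at 446, 501, 524 and 787 in smoke, against 534, 580, 600 and 755 in air, with overlapping groups, and did not pass (log2 change -0.15 ± 0.19, limma adjusted p = 0.625). Replicate 4 was the highest of its group for both male smoke and male air. Imaginal disc markers, of which 7 were matched, were also lower in smoke-exposed females: 4 of 7 were called lower, none was called in males, and their summed level was 322 to 512 CPM in female smoke against 346 to 659 CPM in female air. Their part in the fall of wgn was not tested.

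Per length, grnd was the more abundant receptor RNA in every library. The ratio of grnd to wgn in reads per kilobase was 2.31 to 3.19 in female smoke against 1.38 to 2.52 in female air, and 1.76 to 3.52 in male smoke against 1.71 to 2.97 in male air. The ratios of smoke and air overlapped in both sexes.

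**Figure D2:**
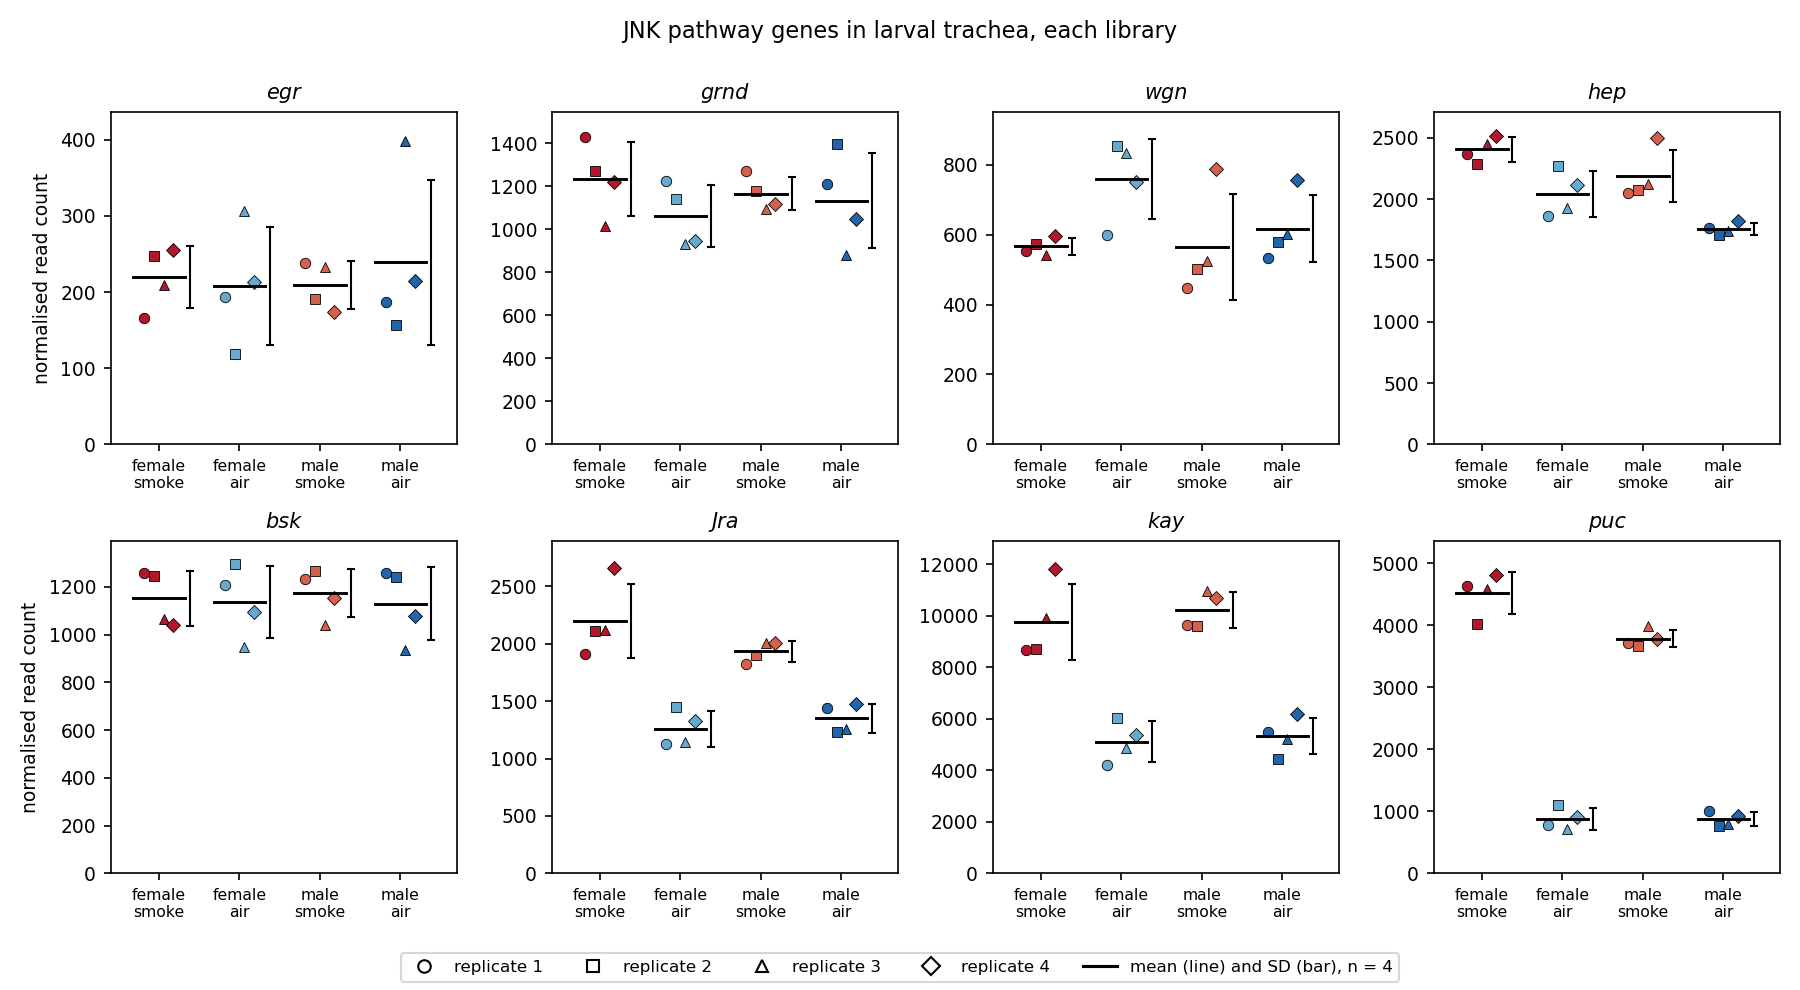
Normalised read counts of the 8 JNK pathway genes in each library, with smoke left of air for each sex, on axes that start at 0, where symbols mark the replicate number, lines the mean and bars the SD of 4 libraries. Smoke and air points of puc, kay and Jra are apart in both sexes, while those of egr, grnd and bsk are mixed.

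The kinase gene hep (FBgn0010303, chromosome arm X), which encodes the JNK kinase that activates Basket, was slightly higher in smoke. In males it stood at 2051, 2075, 2123 and 2497 in smoke, against 1764, 1705, 1741 and 1818 in air, so that all smoke libraries lay above all air libraries. The log2 change was 0.31 ± 0.08 (limma adjusted p = 0.0363), or 1.24-fold, with a 95% interval of 0.13 to 0.49. Leaving out 1 library ended this call in 7 of 8 fits, at adjusted p of 0.0533 to 0.0847 (limma). The exception was male smoke replicate 2. Rescaling libraries to the same total ended the call too (limma adjusted p = 0.0923). It was kept with edgeR and with DESeq2 on recovered reads, where DESeq2 called 1971 male genes against 1178 in the main limma fit. For male hep the authors' deposited table gives an adjusted p of 0.00353. In females hep was at 2371, 2284, 2451 and 2517 in smoke, against 1860, 2268, 1927 and 2112 in air. These groups did not overlap either, though the lowest smoke library, at 2284, was only just above the highest air library, at 2268. The female change of 0.24 ± 0.08 did not pass (limma adjusted p = 0.0724), but DESeq2 on the recovered reads, which called 25.3% of the female genes it tested, gave an adjusted p of 0.0322, and the authors' deposited table gives 0.0421. Within replicates 1 and 2 the log2 change of hep was 0.18 in females and 0.25 in males, and within replicates 3 and 4 it was 0.30 and 0.37.

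Basket RNA did not change detectably. The gene bsk (FBgn0000229, chromosome arm 2L), the only JNK of the fly, stood at 1257, 1248, 1064 and 1042 in female smoke, against 1210, 1297, 947 and 1094 in female air. Male smoke libraries were at 1234, 1267, 1040 and 1152, against 1260, 1242, 936 and 1080 in male air. In each of the 4 groups the libraries split by replicate number, with replicates 1 and 2 above replicates 3 and 4, and smoke and air overlapped. Smoke over air, the log2 change of bsk was 0.02 ± 0.12 in females (limma adjusted p = 0.908) and 0.06 ± 0.11 in males (limma adjusted p = 0.760). The 95% intervals, -0.24 to 0.29 and -0.20 to 0.32, bound the change of bsk RNA in each direction.

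Jra (FBgn0001291, chromosome arm 2R), the fly Jun, rose in both sexes. It stood at 1909, 2110, 2124 and 2657 in female smoke, against 1123, 1446, 1142 and 1327 in female air. Male smoke libraries were at 1820, 1899, 2007 and 2006, against 1439, 1229, 1255 and 1474 in male air. All smoke libraries lay above all air libraries in both sexes, and the single highest, female smoke replicate 4, was also the highest of its group for 5 of the other 7 genes. The log2 change was 0.80 ± 0.13 in females (limma adjusted p = 0.00507) and 0.52 ± 0.08 in males (limma adjusted p = 0.00640). Within replicates 1 and 2 it was 0.66 in females and 0.48 in males, and within replicates 3 and 4 it was 0.95 and 0.56. The annotation places 39 exon bases of Jra, 2.38% of its length, opposite RpLP0-like, which passed the test in neither sex (log2 change -0.44 in females with a limma adjusted p of 0.0649, and -0.01 in males).

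Its partner kay (FBgn0001297, chromosome arm 3R), the fly Fos, had the highest normalised read counts of the 8 genes. In female smoke kay stood at 8650, 8718, 9891 and 11798, against 4184, 6028, 4855 and 5377 in female air. In male smoke it was at 9653, 9612, 10947 and 10671, against 5502, 4440, 5199 and 6162 in male air. Here too no smoke library overlapped an air library of its sex. The log2 change was 0.94 ± 0.14 in females (limma adjusted p = 0.00449) and 0.95 ± 0.11 in males (limma adjusted p = 0.00183), with 0.79 and 0.96 within replicates 1 and 2, and 1.08 and 0.93 within replicates 3 and 4. Per length, the ratio of kay to Jra was 0.871 to 0.982 in female smoke against 0.786 to 0.896 in female air, and 1.07 to 1.15 in male smoke against 0.762 to 0.881 in male air. The ratios overlapped in females and did not overlap in males.

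The feedback gene puc (FBgn0243512, chromosome arm 3R), which encodes the phosphatase that switches Basket off, stood at 4631, 4024, 4586 and 4809 in female smoke, against 779, 1108, 716 and 904 in female air. In male smoke it was at 3707, 3669, 3983 and 3779, against 997, 770, 797 and 930 in male air. In each sex the lowest smoke library was more than 3 times as high as the highest air library. Means were 4512 ± 340 in female smoke and 877 ± 173 in female air, and 3784 ± 140 in male smoke and 874 ± 108 in male air (SD, n = 4 libraries each). These are log2 changes of 2.38 ± 0.14 in females (limma adjusted p = 7.36e-05) and 2.12 ± 0.09 in males (limma adjusted p = 4.46e-05). Both changes were the largest of the 8 genes. By size of rise puc ranked 67 of 8877 genes tested in females and 53 of 8705 in males. Within replicates 1 and 2 the log2 change was 2.22 in females and 2.07 in males, and within replicates 3 and 4 it was 2.54 and 2.17. The rise was thus similar in both pairs of numbers. Leaving out any 1 library left it between 2.29 and 2.50 in females and between 2.06 and 2.19 in males. The authors' deposited table gives 2.30 for females and 2.10 for males.

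Among air libraries of females, replicate 2 was the highest of its group for 6 of the 8 genes (puc, kay, Jra, bsk, hep and wgn). That library had the lowest summed muscle markers, at 574 CPM, and the highest tracheal markers of the female air group, at 9976 CPM. With it left out the female changes were larger, 2.50 for puc, 1.02 for kay and 0.87 for Jra, and the adjusted p of hep became 0.0272 (limma). In male air, replicate 4 was the highest for 4 of the 8 genes (kay, Jra, hep and wgn), and it too had the highest tracheal markers of its group, at 11769 CPM. The part of the amount of tracheal RNA in these levels was not tested.

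Levels of different genes were compared only as RPKM, the recovered reads scaled by exon length and by the library's total. Exon length joins the exons of all annotated transcripts, of which puc has 2, Jra 3, kay 5 and hep 7. Which transcripts were present was not examined, so the order of genes depends on this choice of length. In female smoke puc was first, at 71.8 ± 5.21 RPKM, with Jra at 67.5 ± 8.65 and kay at 63.1 ± 7.95 (SD, n = 4 libraries here and below). Ranges of these 3 genes overlapped from neighbour to neighbour. Below them came grnd at 29.8 ± 5.37, bsk at 28.9 ± 4.10, hep at 19.5 ± 0.651, wgn at 11.0 ± 0.684 and egr at 5.11 ± 0.914 RPKM, where only grnd and bsk overlapped. In female air the order was Jra at 42.0 ± 5.62, kay at 35.9 ± 5.56, bsk at 30.9 ± 5.18, grnd at 27.7 ± 4.86, hep at 18.0 ± 1.81, wgn at 15.96 ± 2.14, puc at 15.2 ± 3.24 and egr at 5.21 ± 1.75 RPKM. Ranges of neighbours in this order overlapped, except between grnd and hep and between puc and egr. So puc stood above 6 of the other 7 genes in female smoke that stood above it in female air, and apart from puc only bsk and grnd traded places.

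In males puc also stood higher in the order after smoke. In male smoke kay was first at 68.6 ± 2.42 RPKM and did not overlap puc at 62.4 ± 0.780, which overlapped Jra at 61.6 ± 1.84. The rest of the male smoke order was bsk at 30.5 ± 3.63, grnd at 29.1 ± 2.74, hep at 18.4 ± 1.59, wgn at 11.4 ± 2.90 and egr at 5.05 ± 0.745 RPKM, with an overlap of bsk and grnd only. In male air the order was Jra at 45.2 ± 4.47, kay at 37.6 ± 4.35, bsk at 31.0 ± 5.61, grnd at 29.9 ± 7.29, hep at 15.6 ± 0.693, puc at 15.2 ± 2.04, wgn at 13.1 ± 1.81 and egr at 5.99 ± 2.42 RPKM. Neighbours overlapped except grnd and hep, and wgn and egr. The ratio of the phosphatase RNA to the RNA of its substrate differed likewise. Per length, the ratio of puc to bsk was 2.05 to 2.94 in female smoke against 0.409 to 0.543 in female air, and 1.84 to 2.44 in male smoke against 0.395 to 0.548 in male air. Every smoke library thus held more puc than bsk RNA per length, and every air library less.

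**Figure D3:**
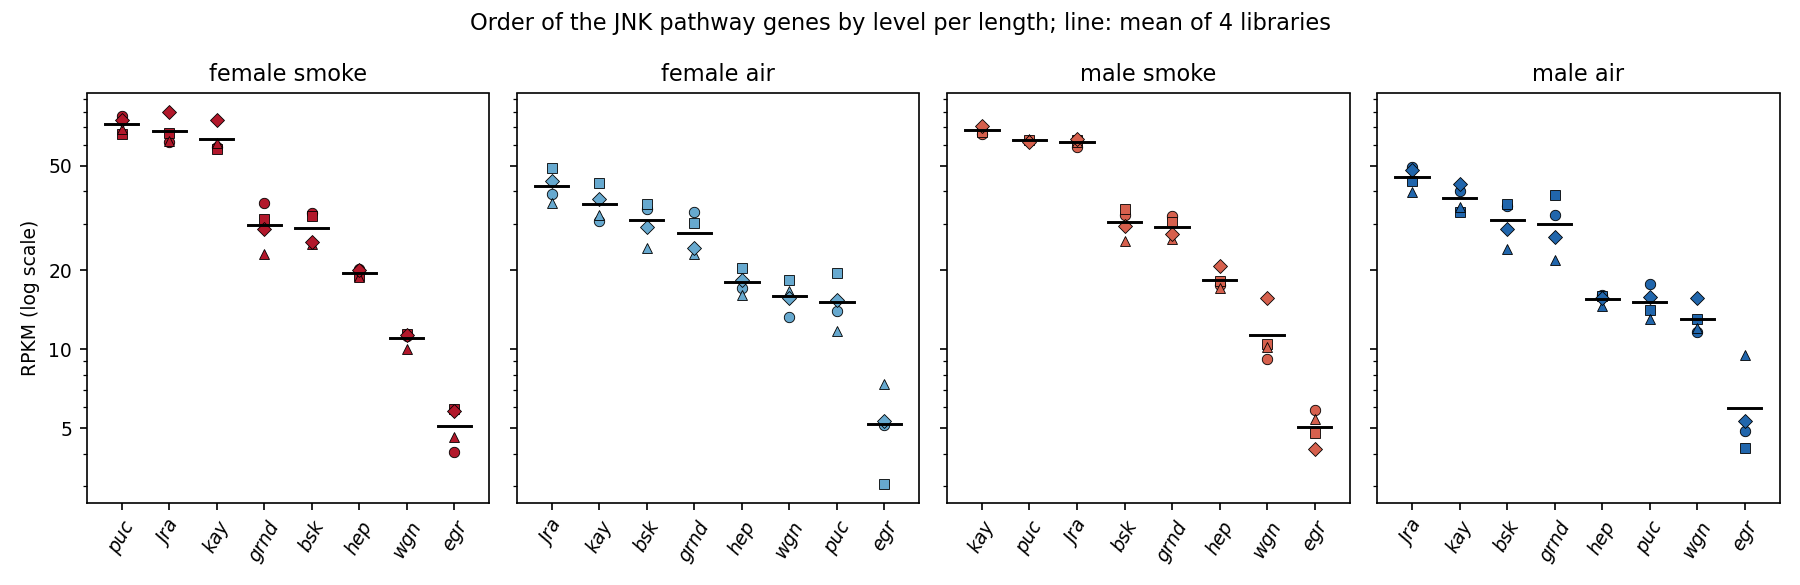
Levels of the 8 JNK pathway genes per length, in RPKM on a log axis, ordered within each group from highest to lowest, with lines at the mean of 4 libraries and symbols for replicate numbers as in the plot of normalised read counts. In the smoke groups puc, Jra and kay form the upper set, at 61.6 to 71.8 on average, whereas puc is seventh in female air and sixth in male air, at 15.2 in both.

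The size of the smoke response did not differ between the sexes beyond error for any of the 8 genes. The difference, female minus male log2 change in 1 model over the 16 libraries, was called for 0 of 8 genes by limma, by edgeR and by DESeq2, and 0 of 8 had an unadjusted limma p under 0.05, beside 2.17% of all genes called by limma. For puc it was 0.26, with a 95% interval of -0.11 to 0.62 (limma adjusted p = 0.553). For Jra it was 0.28, with an interval of -0.04 to 0.60 (limma adjusted p = 0.446), and for kay -0.01, with an interval of -0.40 to 0.38 (limma adjusted p = 0.990). The intervals of all 3 genes include 0. For wgn it was -0.26, with an interval of -0.75 to 0.23 (limma adjusted p = 0.697), and for hep -0.07, with an interval of -0.30 to 0.16 (limma adjusted p = 0.857). The intervals of egr, grnd and bsk, -0.64 to 1.13, -0.27 to 0.58 and -0.39 to 0.32, included 0 as well. A call of wgn in females only and of hep in males only is therefore not shown to be a sex difference.

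Upstream of hep, most genes of the cascade did not pass the test. Of 15 genes of upstream kinases and adaptors, 2 were called higher and 0 lower in each sex, msn and POSH both times, where 10.9% of all genes tested were called higher in females and 8.89% in males. The median log2 change was 0.10 in both sexes. With a replicate block 5 of the 15 were called higher in males and 3 in females. That fit called more genes higher in all, 1669 of 8705 in males and 1374 of 8877 in females, against 774 and 970 without the block. POSH, a scaffold protein with ubiquitin ligase activity that promotes JNK signalling, stood at 1083 to 1488 in female smoke against 785 to 966 in female air, and at 1192 to 1464 in male smoke against 720 to 836 in male air. Neither sex had overlapping groups. The log2 change of POSH was 0.47 ± 0.11 in females (limma adjusted p = 0.0229) and 0.76 ± 0.09 in males (limma adjusted p = 0.00214). The gene msn, for a kinase of the MAP4K family that acts above the JNK cascade, stood at 7235 to 9785 in female smoke against 5784 to 6959 in female air, and at 7762 to 8958 in male smoke against 5475 to 6341 in male air. Its log2 change was 0.40 ± 0.11 in females (limma adjusted p = 0.0380) and 0.45 ± 0.08 in males (limma adjusted p = 0.0101). In females the call of POSH was lost without smoke replicate 2, 3 or 4 or air replicate 1 or 4 (limma adjusted p 0.0509 to 0.0600), and that of msn without smoke replicate 2, 3 or 4 or air replicate 1, 3 or 4 (0.0683 to 0.0947), after scaling libraries to one upper quartile (0.0522) or one total (0.112), and with no filter (0.0570). The kinases that act directly on Hemipterous or beside it did not pass: the log2 changes of slpr, wnd, Tak1, Ask1 and Mkk4 lay between -0.10 and 0.13 in females and between 0.06 and 0.18 in males.

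Of 2 other genes listed with the pathway, raw rose and CYLD did not pass. The gene raw, which limits JNK signalling and AP-1 activity in the embryonic epidermis, stood at 6769, 6169, 7265 and 8279 in female smoke, against 2109, 3604, 2347 and 2625 in female air. Its male smoke libraries were at 6994, 6857, 7609 and 9244, against 2706, 2580, 2352 and 4735 in male air. Smoke was above air without overlap in both sexes, by a log2 change of 1.44 ± 0.17 in females (limma adjusted p = 0.00167) and 1.36 ± 0.22 in males (limma adjusted p = 0.00710). For CYLD, a deubiquitinase, the log2 change was -0.09 ± 0.14 in females and -0.10 ± 0.13 in males (limma adjusted p = 0.715 and 0.653).

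Most genes listed as JNK targets in flies that could be tested were higher after smoke in both sexes. Of 17 such genes 16 could be tested in females, of which 10 were called higher and 1 lower, and 15 in males, of which 10 were called higher and 0 lower. Of all genes tested, 10.9% were called higher and 7.09% lower in females, and 8.89% and 4.64% in males. The same 10 genes rose in both sexes: upd2, upd3, rpr, Ets21C, Atf3, scaf, mol, cher, Gadd45 and Hsp68. The median log2 change of those tested was 1.18 in females and 0.98 in males, beside -0.02 and -0.01 over all genes. The list was chosen with earlier results of these data known, so its comparison with all genes is a description. Many genes of this list are also known to answer to other stress pathways. Ilp8, an insulin-like peptide released by damaged tissue, was too low to be tested in either sex, at 0 to 16.4 normalised reads, and the cytokine gene upd1 was too low in males.

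The targets are given by role. Among transcription factors, Ets21C, which cooperates with AP-1, stood at 788, 1362, 1513 and 2666 in female smoke, against 68.8, 337, 63.0 and 173 in female air, and at 1048, 1240, 1315 and 1677 in male smoke, against 278, 78.6, 91.6 and 173 in male air. No smoke library overlapped an air library, and the log2 change was 3.50 ± 0.58 in females (limma adjusted p = 0.00616) and 3.24 ± 0.38 in males (limma adjusted p = 0.00218). Atf3, another stress-induced transcription factor of the bZIP type, rose by 1.13 ± 0.10 in females (limma adjusted p = 0.000582) and 0.98 ± 0.15 in males (limma adjusted p = 0.00561). The secreted interleukin-6-like cytokines upd2 and upd3, which activate JAK-STAT signalling, rose by 3.66 ± 0.53 and 2.47 ± 0.35 in females, and by 3.00 ± 0.40 and 1.75 ± 0.35 in males. The upd3 call in males was lost without male smoke replicate 1 or 4 (limma adjusted p = 0.0590 and 0.0501). Log2 changes in the authors' deposited table were smaller for Ets21C, at 2.42 in females and 2.79 in males, and for upd2, at 2.52 and 2.67. In that table they were 2.12 and 1.58 for upd3 and 1.11 and 0.98 for Atf3.

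Of the pro-apoptotic genes of the list rpr rose, and hid passed in neither sex in the main limma fit. The pro-apoptotic gene rpr stood at 300, 287, 261 and 499.7 in female smoke, against 58.8, 51.4, 63.0 and 64.1 in female air, and at 237, 146, 160 and 269 in male smoke, against 58.6, 42.8, 54.7 and 56.5 in male air. That gave log2 changes of 2.44 ± 0.21 in females (limma adjusted p = 0.000398) and 1.88 ± 0.22 in males (limma adjusted p = 0.00230). The log2 change of hid was -0.84 ± 0.26 in females and -0.50 ± 0.25 in males (limma adjusted p = 0.0588 and 0.205), and in females it passed without air replicate 3 (limma adjusted p = 0.0294). Female hid was also called lower with array weights, a replicate block or a term for the pairs of numbers (limma adjusted p = 0.0345, 0.0260 and 0.0369). With DESeq2 on recovered reads its adjusted p was 0.0112, and the authors' deposited table gives 0.0130. The array weights, block, pair-term and DESeq2 fits called 2232 to 2906 female genes in all, against 1599 in the main limma fit. Gadd45, a growth arrest and DNA damage gene, rose by 2.15 ± 0.35 in females (limma adjusted p = 0.00586) and 1.34 ± 0.23 in males (limma adjusted p = 0.00881). The heat shock protein gene Hsp68 rose by 2.87 ± 0.36 in females and 4.71 ± 0.63 in males (limma adjusted p = 0.00205 and 0.00351). For Hsp68 the authors' deposited changes were 2.63 and 3.32. Its sex difference of -1.84 did not pass (limma adjusted p = 0.307).

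Genes for the cell surface and cytoskeleton were mixed. The serine protease homologue gene scaf, which in the embryo damps JNK signalling, rose by 1.28 ± 0.24 in females (limma adjusted p = 0.00906) and 1.63 ± 0.18 in males (limma adjusted p = 0.00165). The filamin gene cher rose by 0.83 ± 0.12 in females (limma adjusted p = 0.00327) and 0.74 ± 0.13 in males (limma adjusted p = 0.00903). For mol, a maturation factor of the NADPH oxidase Duox, the rise was 0.58 ± 0.13 in females and 0.68 ± 0.17 in males (limma adjusted p = 0.0167 and 0.0364). The calls of mol were lost without female smoke replicate 4 (limma adjusted p = 0.0513), without male smoke replicate 1, 2 or 4 or male air replicate 2, 3 or 4 (0.0587 to 0.0972), and in males also with the same total (0.0842). The BMP-type ligand gene dpp was the 1 target called lower, with a log2 change of -0.57 ± 0.16 in females (limma adjusted p = 0.0374), with overlapping groups and no call when any 1 of 6 libraries was left out. In males dpp did not pass, at -0.30 ± 0.17. The non-muscle myosin gene zip and the lipocalin gene NLaz passed in neither sex: zip had log2 changes of 0.39 ± 0.29 in females and 0.31 ± 0.25 in males, and NLaz ranged from 399 to 677 in female smoke against 127 to 744 in female air (limma adjusted p = 0.145), with a log2 change of -0.32 ± 0.59 in males. Without female air replicate 2, the highest library, the female change of NLaz was 1.79 and passed (limma adjusted p = 0.00236). The cytokine gene upd1 did not pass in females, at -1.71 ± 0.59, but did without air replicate 2, at -2.27 (limma adjusted p = 0.00737). Female upd1 was also called lower with array weights or a replicate block (limma adjusted p = 0.00813 and 0.0325). With DESeq2 on recovered reads its adjusted p was 0.0125, and the authors' deposited table gives 0.0128. The array weights, block and DESeq2 fits called 2232 to 2906 female genes in all, against 1599 in the main limma fit.

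The matrix metalloproteinase gene Mmp1, singled out here after its values were seen, had a female change that hung on 1 library. It stood at 10202, 11967, 5584 and 17899 in female smoke, against 2904, 39424, 2933 and 3207 in female air. Of the air libraries 3 lay below every smoke library and replicate 2 lay above every one. Its log2 change was 0.88 ± 0.85 with all libraries (limma adjusted p = 0.518) and 1.80 without female air replicate 2 (limma adjusted p = 0.0102). For females the authors' deposited change of Mmp1 was -0.04. In males the libraries ranged from 5108 to 46734 in smoke against 3369 to 33775 in air, with the highest value of each group in replicate 4, and a log2 change of 0.01 ± 0.86 (limma adjusted p = 0.997). Female air replicate 2 was the highest of its group for 8 of the 17 target genes, and leaving it out made the count of female targets called 12 higher and 2 lower. Calls over all genes rose too in that fit, to 1153 higher and 856 lower, against 970 and 629 with all libraries.

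**Figure D4:**
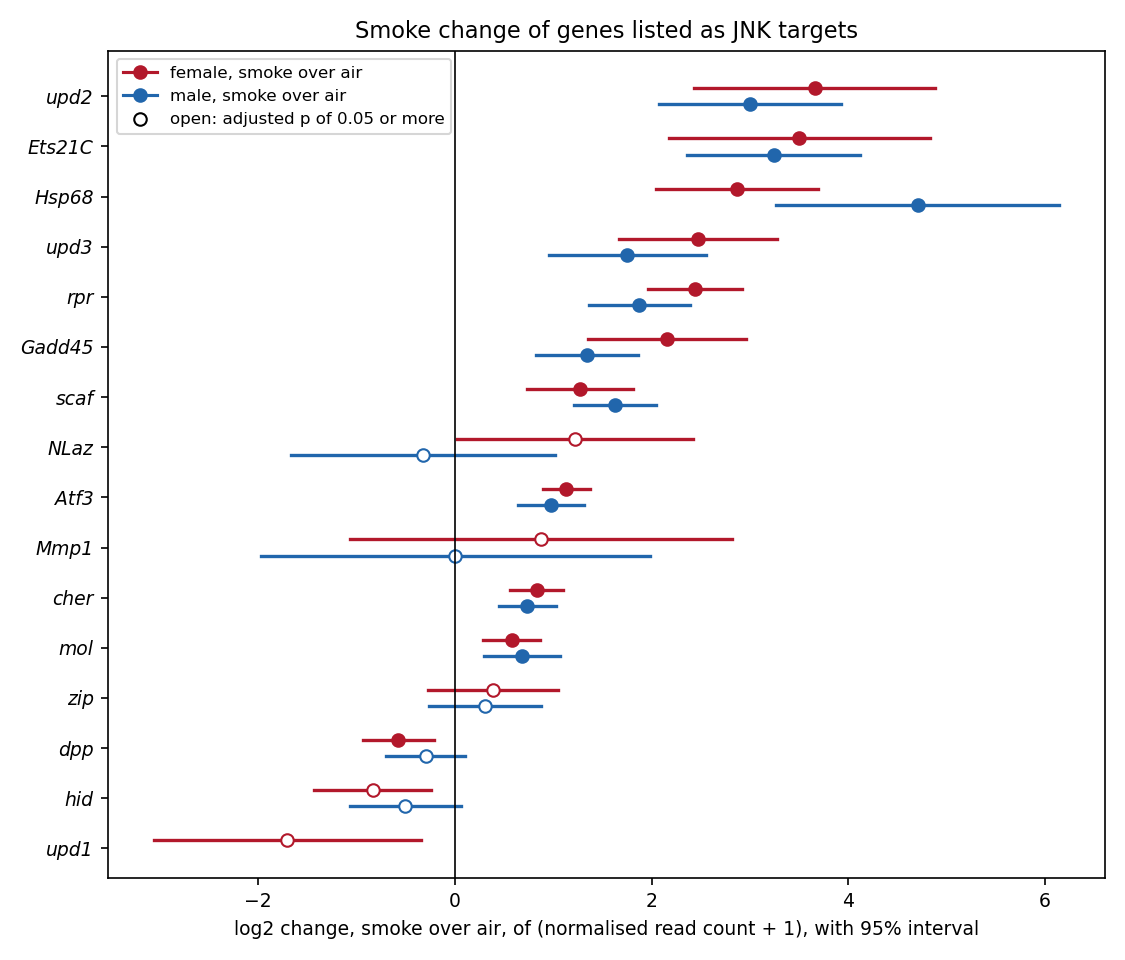
Log2 change with smoke over air of log2(normalised read count + 1) for the tested genes listed as JNK targets, in order of the female change, females in red above males in blue, with 95% intervals from limma and open points for an adjusted p of 0.05 or more. Intervals of the 10 genes called in both sexes lie right of 0, upd2 and Ets21C have the largest female changes at 3.66 and 3.50, and Mmp1 has an interval from -1.06 to 2.81 in females.

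**Figure D5:**
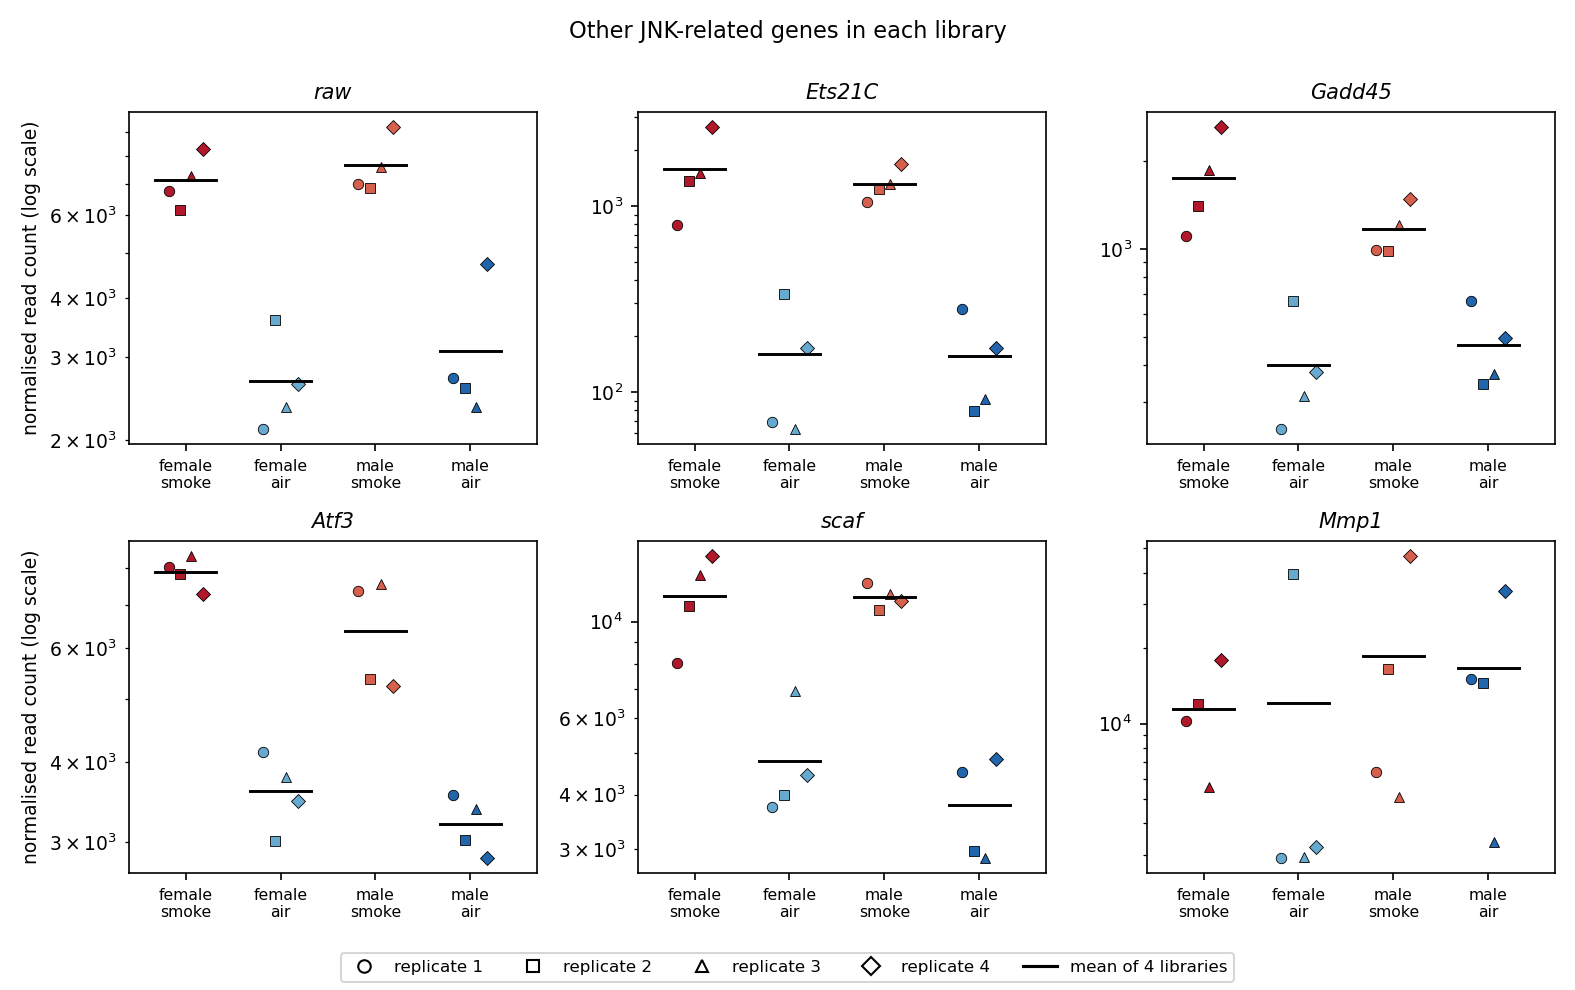
Normalised read counts in each library, on log axes, of raw, Ets21C, Gadd45, Atf3, scaf and Mmp1, with smoke left of air for each sex, symbols for replicate numbers and lines at the mean of 4 libraries. Smoke and air libraries of the same sex do not overlap for the first 5 genes, while the female air libraries of Mmp1 hold 1 at 39424 and 3 between 2904 and 3207.

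The p38 kinases are the other stress-activated kinases of the MAPK family. Of 6 genes of that branch 1 was called higher and 0 lower in each sex, Mekk1, a kinase at its top. Over all genes tested, 10.9% were called higher in females and 8.89% in males. The log2 change of Mekk1 was 0.41 ± 0.10 in females (limma adjusted p = 0.0217) and 0.37 ± 0.08 in males (limma adjusted p = 0.0185). Its call was lost without female smoke replicate 1, 2 or 4 or female air replicate 4 (limma adjusted p 0.0566 to 0.0636), without male smoke replicate 1 or male air replicate 4 (0.0539 to 0.0618), and with the same total in both sexes (0.132 and 0.101). The kinase genes p38a, p38b and p38c, the p38 kinase kinase gene lic and the transcription factor gene Atf-2 had log2 changes between -0.08 and 0.22 in females and between -0.49 and 0.04 in males. The difference between the JNK and the p38 genes was not tested.

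The genes whose pattern over libraries was most like that of puc were ranked by the smaller of 2 Pearson correlations of log2(value + 1), 1 over the 8 female and 1 over the 8 male libraries, among 8055 genes with a symbol and a mean of at least 20. As these libraries differ by smoke, any gene whose rise is large beside its spread within groups scores high, whatever the size of the rise. The correlations are therefore a description. The 5 most like puc were Nak at 0.996, stv at 0.991, Pino at 0.989, CG2765 at 0.988 and milt at 0.988. Their log2 changes ran from 0.69 for Nak to 2.90 for stv in females, and from 0.69 to 3.73 for the same genes in males. Of the other JNK pathway genes kay ranked 61 at 0.958, Jra ranked 75 at 0.955 and hep ranked 330 at 0.881. Lower came grnd at 0.153, bsk at 0.143, egr at -0.16 and wgn at -0.77.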

How the data were processed

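RNA from isolated larval trachea was sequenced as single reads of 75 bp, per the labels' protocols (NucleoSpin RNA kit, NEBNext Ultra RNA kit, NextSeq500). Per the submitters' processing notes STAR 2.6.0c and DESeq2 1.22.2 were used, in roles the notes do not state, and they name no fly genome build, so no coordinates are given. The counting tool, strand, annotation and filters are not stated in the labels or headers. For each sex the authors deposited a table of normalised signal, with 17559 genes by 8 libraries. The values behave as reads divided by 1 size factor per library (0.750 to 1.30): multiplied back, 100% lie within 0.01 of a whole read, and these whole read counts were recovered. The authors' deposited comparison tables hold their own log2 fold changes, p-values and other statistics, such as a test score, per gene, and were used only where named.

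Tests used limma 3.58.1 (R 4.3.3) with a mean-variance trend on log2(value + 1), which understates the change of low genes. A gene entered the fit of a sex if 4 or more of the 8 libraries reached 10, and each sex was fitted alone (two-sided, Benjamini-Hochberg adjustment over all genes tested, threshold 0.05). The sex difference used 1 model over 16 libraries. The tables of the sexes were normalised separately, so levels are set across sexes without a test. Fits were tested on simulated data. RPKM used exon lengths of Ensembl's BDGP6.54 annotation, which also gave chromosome arms and overlaps, and 17253 of the 17559 identifiers matched it. Markers are CPM of recovered reads summed per list; 3 of 104 list symbols (btl, wupA and ap) were not analysed here. Precision depends on depth, 15036560 to 23434521 reads per library: the 8 genes had 149 to 11282 reads each per library.

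The 8 genes and all lists were chosen with earlier results of these data known. From each list the text names up to 4 called genes per sex with the smallest adjusted p; Mmp1, upd2, upd3, Gadd45, mol, dpp and uncalled genes such as hid were named after their values were seen. The alternatives changed the pseudocount (0.5 or 5), the filter (none, or 50) or the scaling (one upper quartile or one total for all libraries), or used array weights, edgeR 4.0.16 and DESeq2 1.42.0 on recovered reads, a replicate block, a term for replicates 1 and 2 against 3 and 4, either pair alone, and leaving out each library. Sequences of promoters or proteins were not used here.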

Additional observations from a re-analysis of the deposited data

Results flagged for a closer look

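Groups of 4 libraries were screened for a library that stands apart by its gap to the nearest other library as a share of the group's range, against Dixon's critical value for 4 libraries at the 95% level. The screen covered 136 groups, from the 8 JNK genes, the genes of the lists given with their own change and the 5 genes most like puc, and chance alone would mark about 1 in 20. The kinase gene hep stood at 2497 in male smoke replicate 4, against 2051 to 2123 in the other libraries of that group. Without it the male change of hep was 0.25 and was not called. The gene raw stood at 4735 in male air replicate 4, against 2352 to 2706 in the others, and the scaffold gene POSH at 836 in male air replicate 3, against 720 to 733. The pro-apoptotic gene rpr stood at 499.7 in female smoke replicate 4, against 261 to 300 in the others. In female air, replicate 2 stood apart for Mmp1 at 39424, against 2904 to 3207, for upd2 at 42.2, against 9.28 to 11.0, and for NLaz at 744, against 127 to 201. The myosin gene zip stood at 30697 in female smoke replicate 3, against 46091 to 48902, and at 31703 in male smoke replicate 3, against 52741 to 55092. CG2765, one of the genes most like puc, stood at 2261 in female air replicate 4, against 2317 to 2321 in the other 3, a gap of small size in a tight group.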

How the results depend on the processing

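Calls of puc, kay and Jra held in both sexes under 19 of 19 alternatives that used both pairs of replicate numbers, leaving out each library included. Within replicates 1 and 2 alone 0 of 8 JNK genes were called in females and 1 in males (puc), and within replicates 3 and 4 alone 3 and 0, with fewer libraries per fit and changes of the same sign for these genes. Leaving out 1 library gave 3 to 4 of 8 called in either sex and 0 for the sex difference. The genes called in all, 1599 in females, 1178 in males and 187 for the sex difference, became 12, 146 and 61 in replicates 1 and 2, and 799, 11 and 1 in replicates 3 and 4, where fewer libraries were used. They became 2514, 1967 and 365 with a term for the pairs of numbers; 2906 in females and 323 for the sex difference with array weights; and 1971 in males and 342 for the sex difference with DESeq2 (cause not tested). Leaving out 1 library gave 1005 to 2009, 496 to 1183 and 131 to 188, with a move of over 1.5 times without female smoke 3 (1015) or 4 (1005), female air 4 (1060), male smoke 1 (496), 3 (702) or 4 (639), or male air 2 (556), 3 (769) or 4 (614).

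The split of calls depended on scaling: 970 higher and 629 lower in females as deposited, 833 and 820 with the same upper quartile, and 643 and 1038 with the same total, which moved the median of all genes from -0.02 to -0.13. In males 774 and 404 became 444 and 470 with the same total. The signs of puc, kay, Jra, hep, raw and the 10 targets called higher were the same under all of these.

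Replicate numbers were not taken to pair the libraries, as no label states that a number marks a shared source. Column names of replicate 3, however, end in closely spaced numbers over both sexes and treatments, and those of replicate 4 in another such set. What these numbers mean is not stated. Of 8 correlations of same-numbered smoke and air libraries 6, not all, were over 0.1. They were 0.17, 0.29, 0.42 and -0.10 in females and 0.38, 0.04, 0.37 and 0.46 in males. Of the 8 smoke libraries 6 correlated best with the air library of their own number. This is a hint of shared deviation by number, and whether the numbers pair the libraries is not stated. With a replicate block 2504, 2816 and 669 genes were called, and 4, 4 and 0 of the 8 JNK genes. Upstream kinases and adaptors called were 3 in females and 5 in males with the block, against 2 in each without it, and targets called were 13 and 11, against 11 and 10. With array weights 6 of 8 JNK genes were called in females, grnd and hep being added, and 4 in males.

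Small uncalled changes turned sign, for causes not tested. For bsk in females this was -0.091 with the same total, -0.022 with the same upper quartile, -0.00072 in replicates 1 and 2, and -0.061 to 0.091 on leaving out 1 library. For bsk in males it was -0.012 with the same total, -0.0096 with array weights, -0.00074 in replicates 1 and 2, and -0.026 to 0.12 on leaving out 1 library. For egr in females it was -0.050 with array weights, -0.14 in replicates 3 and 4, and -0.10 to 0.35 on leaving out 1 library, and in males 0.14 with array weights, 0.32 in replicates 1 and 2, and -0.28 to 0.17. For grnd in males it was -0.017 with array weights, -0.085 in replicates 1 and 2, -0.013 with the same total, and -0.054 to 0.17. CYLD in females was 0.066 with array weights and -0.16 to 0.0028 on leaving out 1 library, and NLaz in males -0.86 to 0.15. Mmp1 was at -0.095 in females with edgeR, -0.088 with DESeq2 and 0.55 to 1.80 on leaving out 1 library, and in males at -0.43 with array weights, -0.52 in replicates 1 and 2, -0.067 with the same total and -0.63 to 0.48. Of the sex differences, bsk became 0.12 with array weights, 2.1e-05 in replicates 1 and 2 and -0.12 to 0.050; egr -0.18 with array weights and -0.031 to 0.46; and kay 0.022 with edgeR, 0.0040 with DESeq2, 0.15 in replicates 3 and 4 and -0.11 to 0.071.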
